A study of Mus musculus with 7 samples.

Results

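Cholesterol synthesis, uptake and efflux were described here through 31 named genes, chosen by symbol with earlier results of these data known. They were among the 25347 genes tested on arrays of cultured group 2 innate lymphoid cells (ILC2s). ILC2s are tissue-resident lymphocytes that answer epithelial cytokines such as IL-25 and IL-33 with type 2 cytokines. The knockout group held 3 samples of ILC2s from mice homozygous for Gfi1GFP/GFP, an allele in which a GFP cassette inserted into the Gfi1 locus both reports the Gfi1 promoter and removes the function of this zinc-finger repressor, with 6 mice pooled per sample. The wild-type group held 4 samples from Gfi1+/+ mice, with 3 mice pooled per sample. All mice had been given IL-25 daily for 4 days, and cells sorted on day 5 from mesenteric lymph nodes as lineage-negative, Sca-1+, ICOS+, CD127+ and c-Kit+ were then grown for 6 days in IL-2 (50 ng/ml), IL-7 (10 ng/ml) and IL-25 (50 ng/ml). The knockout is thus germline, and the cells had expanded in culture before RNA was taken.

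Each of the 7 arrays carried 1 sample in red and Universal Mouse Reference RNA, a commercial pool, in green, with no dye swap. Values are log2 ratios of sample over reference RNA, so 0 means equal signal. They compare 1 gene between arrays and not 1 gene with another. Differences are knockout minus wild type on this log2 scale, with the standard error (SE), and a gene was called where the Benjamini-Hochberg adjusted p of limma over all tested genes was below 0.05. All 31 genes were tested, each was well above background in the sample channel on all 7 arrays, and none was saturated.

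Cells make cholesterol from acetyl-CoA through mevalonate, isoprenoid pyrophosphates, squalene and lanosterol. When membrane sterol in the endoplasmic reticulum is low, the carrier SCAP escorts the transcription factor SREBP2, the product of Srebf2, to the Golgi, where it is cut and released to switch on genes of synthesis and uptake. When sterol is high, INSIG proteins hold SCAP back, while oxysterols activate the liver X receptors (LXRs), which switch on efflux pumps. Lymphocytes are known to raise sterol synthesis when they are activated and divide.

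The genes were grouped as 18 enzymes of synthesis, 4 regulators of SREBP processing, 5 genes of uptake, intracellular transport and esterification, and 4 genes of efflux and LXR. A promoter window of 300 bases, 250 before to 50 after the annotated start, was found for 25 of the 31 genes in a RefSeq table (GRCm38.p6). Of these 25 genes, 5 had several windows, and a gene was counted where any of its windows held a match. Windows were searched on both strands for TCACNCCAC, the core of a sterol regulatory element to which SREBPs bind, and the E-box CACGTG. The CCAAT box bound by NF-Y and the GC box GGGCGG bound by Sp1 were searched for as well. No motif was counted as part of another, although matches may overlap. The window of Hmgcs1 is shown because it held the only exact match to TCACNCCAC among the members. Elements that differ from this core were not searched for, so a window without a match may still hold a sterol element. The windows of the 4 synthesis and regulation genes with the smallest p that had an entry, and that of the efflux gene Abca1, were chosen after their values were seen, to set promoters of genes that were lower in knockout cells side by side. All are written 5′ to 3′ on the gene's strand, and capitals mark every match to any of the 4 motifs.
Hmgcs1 (chr13:119690101-119690400, plus strand): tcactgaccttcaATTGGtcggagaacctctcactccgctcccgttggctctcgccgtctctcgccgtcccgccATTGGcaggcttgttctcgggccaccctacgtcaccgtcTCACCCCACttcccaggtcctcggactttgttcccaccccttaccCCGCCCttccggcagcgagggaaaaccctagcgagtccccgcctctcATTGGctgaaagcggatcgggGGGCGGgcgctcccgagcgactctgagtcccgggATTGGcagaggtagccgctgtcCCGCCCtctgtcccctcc
Sc5d (chr9:42264251-42264550, minus strand): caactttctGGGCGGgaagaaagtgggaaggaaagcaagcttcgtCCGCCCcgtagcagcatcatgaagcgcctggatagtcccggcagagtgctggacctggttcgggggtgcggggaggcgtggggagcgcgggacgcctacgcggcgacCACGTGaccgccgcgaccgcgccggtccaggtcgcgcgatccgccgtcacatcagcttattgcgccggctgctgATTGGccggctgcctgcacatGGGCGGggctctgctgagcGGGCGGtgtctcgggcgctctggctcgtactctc
Srebf2 (chr15:82147019-82147318, plus strand): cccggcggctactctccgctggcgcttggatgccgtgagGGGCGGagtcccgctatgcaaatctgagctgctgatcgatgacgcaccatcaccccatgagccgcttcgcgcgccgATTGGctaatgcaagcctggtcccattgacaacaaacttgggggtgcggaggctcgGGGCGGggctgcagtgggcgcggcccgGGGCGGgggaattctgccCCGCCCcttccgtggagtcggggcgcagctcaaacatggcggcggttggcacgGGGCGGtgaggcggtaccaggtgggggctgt
Insig1 (chr5:28071162-28071461, plus strand): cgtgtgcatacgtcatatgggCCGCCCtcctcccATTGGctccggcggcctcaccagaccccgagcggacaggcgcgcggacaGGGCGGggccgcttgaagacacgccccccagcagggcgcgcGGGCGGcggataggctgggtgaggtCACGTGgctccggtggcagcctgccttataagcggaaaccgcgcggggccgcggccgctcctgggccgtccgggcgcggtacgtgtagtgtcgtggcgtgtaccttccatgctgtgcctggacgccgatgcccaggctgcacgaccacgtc
Cyp51 (chr5:4104648-4104947, minus strand): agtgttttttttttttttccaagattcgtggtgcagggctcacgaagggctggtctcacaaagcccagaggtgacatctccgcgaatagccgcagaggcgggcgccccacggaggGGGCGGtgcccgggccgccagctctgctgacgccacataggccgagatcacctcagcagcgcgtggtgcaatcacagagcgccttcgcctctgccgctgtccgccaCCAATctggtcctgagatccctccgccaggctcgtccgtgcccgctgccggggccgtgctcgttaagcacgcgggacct
Abca1 (chr4:53159846-53160145, minus strand): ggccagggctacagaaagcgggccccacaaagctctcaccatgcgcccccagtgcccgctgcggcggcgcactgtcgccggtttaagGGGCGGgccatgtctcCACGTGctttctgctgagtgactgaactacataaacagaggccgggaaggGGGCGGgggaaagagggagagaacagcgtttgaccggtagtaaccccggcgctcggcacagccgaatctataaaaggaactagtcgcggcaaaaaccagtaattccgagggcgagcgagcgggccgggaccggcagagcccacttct

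The sterol-element core lay at -137 in the Hmgcs1 window, with 4 CCAAT boxes and 3 GC boxes around it. It was present in 1.47% of the 13277 tested genes that had a window, and in 1.24% of all 32851 windows of the table. The CCAAT box was found in 14 of the 15 synthesis genes with a window and in 3 of the 4 regulators, against 42.6% of tested genes and 37.4% of all windows. None of the 3 efflux and LXR genes with a window held it. The GC box was found in 14 of the 15 synthesis genes, in all 4 regulators and in 1 of the 3 efflux and LXR genes, against 57.7% of tested genes and 35.7% of all windows. The E-box stood in 6 of the 25 genes with a window, against 10.3% of tested genes and 7.15% of all windows. These were Dhcr7, Hsd17b7, Sc5d, Insig1, Scap and Abca1. Among members with a window, 10 of 12 called and 10 of 13 uncalled genes held the CCAAT box. These are matches of letters in a short window and show no binding.

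The arrays were checked before the results. Gfi1 stood at 4.29, 4.25 and 4.29 on the knockout arrays, against 1.90, 1.87, 2.36 and 1.96 on the wild-type arrays. The knockout arrays were therefore higher, by 2.25 ± 0.12 (SE; limma adjusted p = 1.63e-05), and since it is not known on which side of the cassette the probe lies, this checks no label. All 14 ILC2 markers were above background on all 7 arrays, with Il1rl1, Gata3 and Areg called lower and Il17rb called higher in knockout cells, and their summed sample-channel level ran from 563 to 714 on knockout arrays and from 769 to 1005 on wild-type arrays, in multiples of each array's signal at percentile 75. On the same scale the 10 T cell markers summed to 8.91 to 19.0 on knockout and 9.43 to 15.4 on wild-type arrays, the 6 B cell markers to 12.0 to 14.8 and 14.7 to 17.6, the 8 measured macrophage and monocyte markers to 2.97 to 3.20 and 2.53 to 3.12, the 5 dendritic cell markers to 0.340 to 0.370 and 0.322 to 0.374, the 7 mast cell and basophil markers to 0.617 to 0.659 and 0.615 to 0.843, the 5 NK cell markers to 0.682 to 0.760 and 0.509 to 0.582, and the 6 stromal and endothelial markers to 2.57 to 2.94 and 2.82 to 3.19. Of these other cell types' markers, Cpa3 and Hdc were called lower and no other was called, and Fcer1a, Ms4a2 and Ncr1 were above background on no array. Their part in the results was not tested, and fewer cells of a type cannot be told apart from less RNA per cell. Xist was high and Ddx3y low on knockout array 3 and wild-type arrays 3 and 4, while the other 4 arrays had the opposite pattern, so pools of both kinds stood in both groups. Knockout array 3 missed 1 of the scanner's quality criteria.

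Of the 31 genes, 16 were called lower in knockout ILC2s and none higher, against 4.23% of all tested genes called lower and 3.27% called higher. Since the genes were chosen with earlier results of these data known, the counts describe them and are no independent test of the pathway. At an unadjusted p below 0.05, 24 of the 31 were lower and again none was higher, against 10.5% of all genes lower and 9.02% higher at that threshold. All tested genes include some above background on fewer than 7 arrays. With only genes above background on all 7 arrays, 21693 were tested, of which 1036 were called lower and 743 higher. The members called lower were again 16. The called genes were 11 of 18 synthesis enzymes, 2 of 4 regulators, none of 5 uptake and transport genes and 3 of 4 efflux and LXR genes. The median difference was -0.51 over the 31 genes and -0.01 over all tested genes, and 28 of 31 were below 0. On every knockout array 21 of the 31 genes stood below every wild-type array, against 10.2% of all genes, and none stood above every wild-type array, against 8.08% of all genes.

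**Figure D1:**
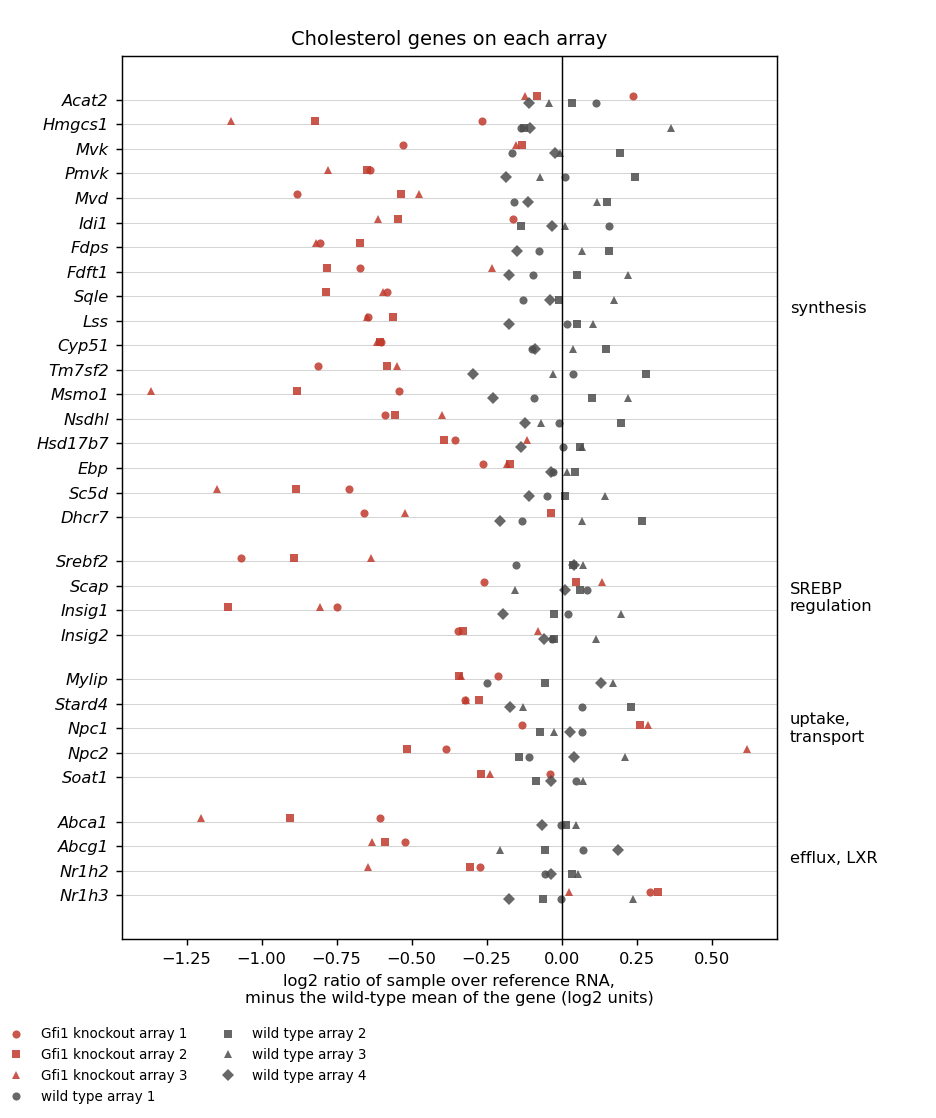
Level of each of the 31 genes on each array, as the log2 ratio of sample over reference RNA minus the gene's wild-type mean; each point is 1 array, with the 3 knockout arrays in red above the 4 wild-type arrays in grey, and the genes are grouped by role. For 21 genes all 3 red points lie left of all 4 grey points, and for no gene do they all lie right of them.

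Within synthesis, 11 of 18 enzymes were called lower, against 4.23% of all tested genes. The median difference was -0.61, with a range from -0.93 to 0.01. For 14 of 18, knockout arrays were all below wild-type arrays, against 10.2% of all tested genes. The sample channel alone gave a median of -0.65, with all 18 enzymes below 0, while the reference channel differed between the groups by -0.19 to 0.02. Calls were made for 2 of 6 genes of the mevalonate steps, 4 of 4 from farnesyl pyrophosphate to lanosterol, and 5 of 8 after lanosterol, with medians of -0.54, -0.64 and -0.56. These counts were not tested against each other.

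**Figure D2:**
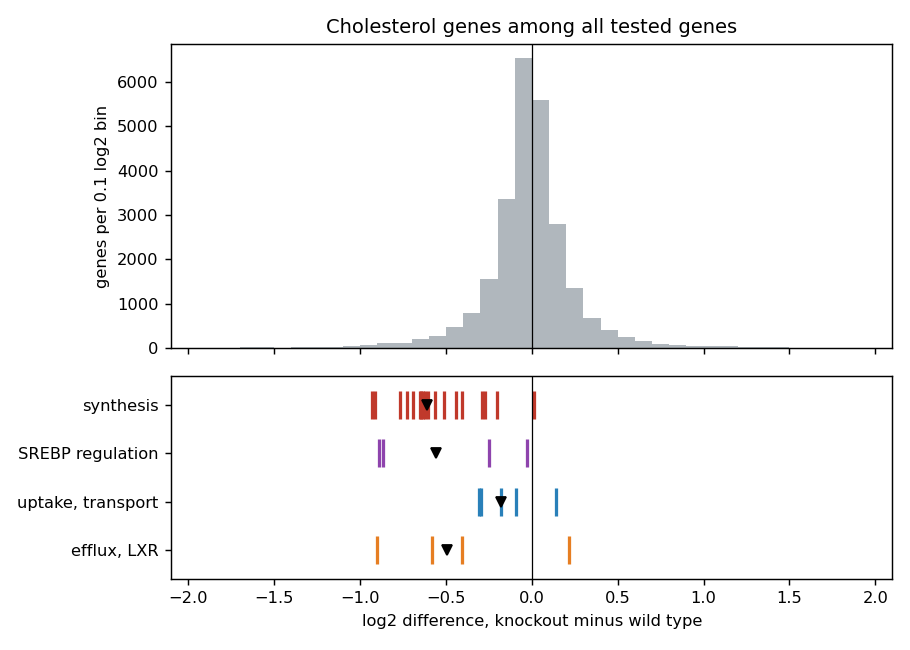
Distribution of the log2 difference, knockout minus wild type, over all 25347 tested genes (upper panel, genes per bin of 0.1, with the few beyond the axis not drawn) and the 31 cholesterol genes by role (lower panel, a tick per gene and a triangle at the median). The synthesis genes have a median of -0.61, the SREBP regulators -0.56, the uptake and transport genes -0.18 and the efflux and LXR genes -0.49, and 16 of the 31 genes lie at or below -0.5, where 3.82% of all tested genes lie.

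Acetyl-CoA is joined into mevalonate and then into isoprenoid units by the first enzymes. Pmvk, the phosphomevalonate kinase, stood at -0.35, -0.36 and -0.49 on knockout arrays, against 0.30, 0.54, 0.22 and 0.11 on wild-type arrays. The groups lay well apart, and the difference was -0.69 ± 0.11 (adjusted p = 0.00508), which is 1.61-fold lower in knockout cells. A second Pmvk probe gave -0.64 (limma adjusted p over probes = 0.00296). Mvd, which decarboxylates mevalonate pyrophosphate, stood at 0.21, 0.56 and 0.62 on knockout arrays, against 0.93, 1.24, 1.21 and 0.98 on wild-type arrays. It was lower by 1.55-fold, with knockout array 1 the farthest from wild type (-0.63 ± 0.12, adjusted p = 0.0147).

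Hmgcs1 encodes the cytosolic synthase, and its window held the match to the sterol-element core. It stood at -0.49, -1.05 and -1.33 on knockout arrays, against -0.36, -0.35, 0.14 and -0.33 on wild-type arrays. All knockout arrays were below all wild-type arrays, but both groups were wide, and the difference of -0.73 ± 0.20 was not called (adjusted p = 0.057). Idi1, the isopentenyl diphosphate isomerase, likewise had no overlap, at 1.69, 1.31 and 1.24 on knockout arrays against 2.01, 1.72, 1.86 and 1.82 on wild-type arrays, and was not called (-0.44 ± 0.12, adjusted p = 0.0632). For both genes knockout array 1 lay closest to wild type. Mvk, the mevalonate kinase, had overlapping groups (-0.27, adjusted p = 0.267), and its second probe gave -0.28. Acat2, the acetyl-CoA acetyltransferase of the cytosol, showed no direction: its difference was 0.01 (95% interval -0.23 to 0.25), and its sign turned under several settings, to -0.03 with median centring in place of loess and to -0.15 in the sample channel alone.

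The 4 enzymes that build squalene and close it into lanosterol were all called lower, each with groups that did not overlap. Fdps, the farnesyl pyrophosphate synthase, stood at -0.78, -0.65 and -0.80 on knockout arrays, against -0.06, 0.18, 0.09 and -0.13 on wild-type arrays, and had the smallest p of the synthesis genes (-0.76 ± 0.10, adjusted p = 0.0016, 1.70-fold lower). Sqle, the squalene epoxidase and a rate-controlling step, stood at -1.55, -1.76 and -1.57 on knockout arrays, against -1.10, -0.98, -0.80 and -1.01 on wild-type arrays. Its difference was -0.65 ± 0.10 (adjusted p = 0.00389), or 1.57-fold lower. Lss, the lanosterol synthase, stood at 0.22, 0.31 and 0.22 on knockout arrays, against 0.89, 0.92, 0.98 and 0.69 on wild-type arrays. The narrow knockout group lay 1.54-fold lower (-0.62 ± 0.09, adjusted p = 0.00318). Fdft1, the squalene synthase, stood at 0.49, 0.38 and 0.92 on knockout arrays, against 1.06, 1.21, 1.38 and 0.98 on wild-type arrays. Knockout array 3 nearly reached the lowest wild-type array, and the call was marginal (-0.56 ± 0.14, adjusted p = 0.0479), being lost on leaving out any of 6 of the 7 arrays, with adjusted p up to 0.157. Its second probe was above background on no array and was not tested.

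Lanosterol is demethylated, reduced and desaturated to cholesterol by the late enzymes, and these included the lowest differences of the 31 genes. Msmo1, the methylsterol monooxygenase, stood at -0.65, -0.99 and -1.48 on knockout arrays, against -0.20, -0.01, 0.11 and -0.34 on wild-type arrays. The difference of -0.93 ± 0.18 (adjusted p = 0.0153, 1.90-fold lower) came with the wide knockout spread of 0.42 (SD, n = 3), against 0.20 (SD, n = 4) in wild type. Sc5d, the sterol desaturase, stood at 0.94, 0.76 and 0.50 on knockout arrays, against 1.60, 1.66, 1.79 and 1.54 on wild-type arrays. It was 1.88-fold lower, and the groups were far apart (-0.91 ± 0.11, adjusted p = 0.00163). Cyp51, the lanosterol demethylase, stood at -0.01, -0.02 and -0.03 on knockout arrays, against 0.49, 0.74, 0.63 and 0.50 on wild-type arrays. The 3 knockout arrays were almost equal, 1.52-fold lower than wild type (-0.61 ± 0.09, adjusted p = 0.00297).

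Tm7sf2, a sterol reductase, stood at 0.11, 0.34 and 0.37 on knockout arrays, against 0.96, 1.20, 0.89 and 0.63 on wild-type arrays. Its main probe was 1.57-fold lower (-0.65 ± 0.13, adjusted p = 0.0185), while a second, uncalled probe gave -0.29 (adjusted p over probes = 0.325), and the mean over both, at -0.47, was not called (adjusted p = 0.0659). Nsdhl, a sterol dehydrogenase that takes part in demethylation, stood at 0.73, 0.76 and 0.92 on knockout arrays, against 1.31, 1.51, 1.25 and 1.19 on wild-type arrays. The groups did not overlap and the difference was -0.51 ± 0.10 (adjusted p = 0.0129), with a second probe at -0.34 (adjusted p over probes = 0.102). The other 3 late enzymes, Hsd17b7 (-0.29), Ebp (-0.20) and Dhcr7 (-0.40), were below 0 without being called, with adjusted p from 0.12 to 0.207. Ebp, the sterol isomerase, still had knockout arrays all below wild-type arrays, at 0.96, 1.05 and 1.04 against 1.19, 1.27, 1.24 and 1.18, and the second Hsd17b7 probe gave -0.27.

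The regulators divided into Srebf2 and Insig1, which were called lower, and Scap and Insig2, which were not. Srebf2 stood at 0.28, 0.45 and 0.71 on knockout arrays, against 1.19, 1.38, 1.42 and 1.39 on wild-type arrays. The difference was -0.87 ± 0.11 (adjusted p = 0.00195), 1.82-fold lower, on the brighter of its 2 probes. Its dimmer probe gave -0.20 (adjusted p over probes = 0.203), so the 2 probes disagree in size, and the mean over both was -0.53 and called. Insig1, itself an SREBP target as well as a brake on SREBP processing, stood at -0.18, -0.54 and -0.24 on knockout arrays, against 0.59, 0.54, 0.77 and 0.37 on wild-type arrays. It was 1.85-fold lower, with a gap between the groups of more than their spread (-0.89 ± 0.12, adjusted p = 0.00242).

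Insig2, the relative of Insig1 with the same role, stood at -0.84, -0.83 and -0.58 on knockout arrays, against -0.53, -0.52, -0.38 and -0.56 on wild-type arrays. The groups only just failed to overlap, and the difference was -0.25 ± 0.09 (adjusted p = 0.166), with a second probe at -0.20. Scap stood at -1.23, -0.93 and -0.84 on knockout arrays, against -0.89, -0.92, -1.13 and -0.97 on wild-type arrays. The groups overlapped fully (-0.03, 95% interval -0.27 to 0.22), and the sign turned to 0.09 with median centring and to 0.01 in the sample channel alone.

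None of the 5 genes of uptake, intracellular transport and esterification was called by limma, and 2 had an unadjusted p below 0.05, both lower, against 10.5% of all genes. Stard4, which carries sterol between membranes, stood at 0.86, 0.91 and 0.86 on knockout arrays, against 1.25, 1.41, 1.05 and 1.01 on wild-type arrays. It was the only gene of the 5 without overlap (-0.31 ± 0.11, adjusted p = 0.138), and its second probe gave -0.18. Mylip, an LXR-induced ubiquitin ligase for lipoprotein receptors, stood at -0.55, -0.68 and -0.67 on knockout arrays, against -0.59, -0.39, -0.17 and -0.21 on wild-type arrays. Only wild-type array 1 reached into the knockout range, and the difference of -0.30 ± 0.11 was not called (adjusted p = 0.172). Soat1, which esterifies cholesterol for storage, stood at -1.59, -1.82 and -1.79 on knockout arrays, against -1.50, -1.64, -1.48 and -1.59 on wild-type arrays. The ranges met, with a difference of -0.18 (95% interval -0.38 to 0.02).

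Npc1 and Npc2 act together to release cholesterol from late endosomes and lysosomes. Npc1 stood at 1.29, 1.68 and 1.71 on knockout arrays, against 1.49, 1.35, 1.40 and 1.45 on wild-type arrays. Knockout array 1 was the lowest of all 7 and the other knockout arrays the highest, for a difference of 0.14 (95% interval -0.11 to 0.39). Npc2 stood at 0.77, 0.64 and 1.78 on knockout arrays, against 1.05, 1.01, 1.37 and 1.20 on wild-type arrays. Knockout arrays 1 and 2 were below every wild-type array and knockout array 3 above, so that the difference of -0.09 has a 95% interval from -0.64 to 0.45, and it turned to 0.01 with median centring.

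Of the 4 efflux and LXR genes, 3 were called lower. Abca1, the pump that loads cholesterol onto lipid-poor apolipoprotein, stood at -1.98, -2.28 and -2.57 on knockout arrays, against -1.37, -1.36, -1.32 and -1.44 on wild-type arrays. Wild-type arrays were nearly equal, and knockout arrays lay 1.87-fold lower (-0.90 ± 0.13, adjusted p = 0.00302). Abcg1, which exports cholesterol to lipoprotein particles, stood at 0.91, 0.84 and 0.80 on knockout arrays, against 1.50, 1.37, 1.23 and 1.62 on wild-type arrays. It was 1.50-fold lower with no overlap (-0.58 ± 0.10, adjusted p = 0.00873). Nr1h2, which encodes LXRβ, stood at -1.23, -1.26 and -1.60 on knockout arrays, against -1.01, -0.92, -0.90 and -0.99 on wild-type arrays. Its call was marginal (-0.41 ± 0.10, adjusted p = 0.0444) and was lost on leaving out any of 6 of the 7 arrays. Nr1h3, which encodes LXRα, stood at -1.40, -1.37 and -1.67 on knockout arrays, against -1.70, -1.76, -1.46 and -1.87 on wild-type arrays. The groups overlapped, and the difference was 0.21 (95% interval -0.05 to 0.48), with a second probe at 0.10.

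**Figure D3:**
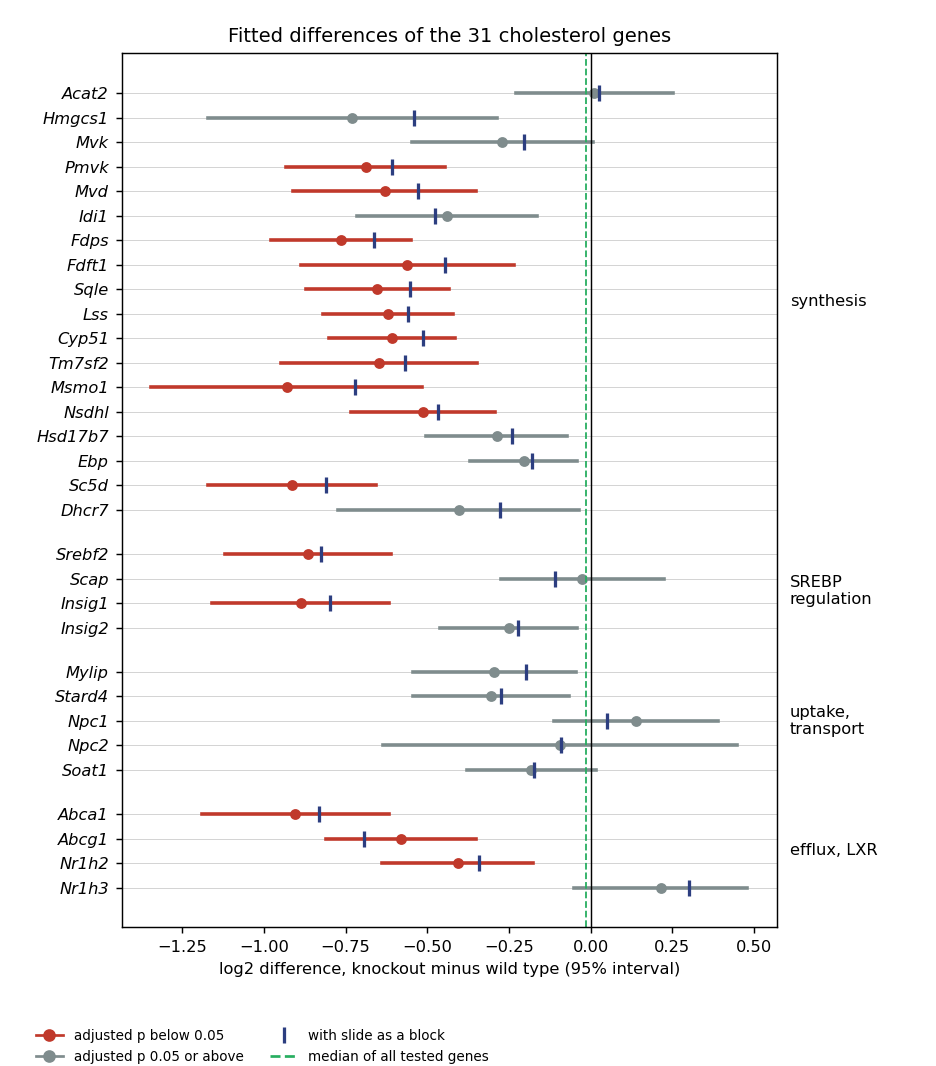
Fitted log2 difference of each of the 31 genes, knockout minus wild type (point) with its 95% interval (line), red where the adjusted p was below 0.05 and grey otherwise; the blue bar is the difference with slide as a block and the dashed green line the median of all tested genes. The red intervals lie below 0 for 16 genes, from -0.41 for Nr1h2 to -0.93 for Msmo1.

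Set side by side, synthesis had a median of -0.61 with 11 of 18 genes called lower. Transport and efflux together had -0.30, with 3 of 9 called lower and 4 of 9 with knockout arrays all below wild-type arrays. Over all tested genes these shares were 4.23% and 10.2%. All 3 of these calls were of efflux and LXR genes, and none of the 5 uptake and transport genes was called. In the sample channel alone the medians were -0.65 for synthesis and -0.38 for transport and efflux together. The difference between these gene groups was not tested. By array, the median of the synthesis genes relative to their wild-type means was -0.59, -0.57 and -0.57 on knockout arrays, against -0.06, 0.08, 0.07 and -0.12 on wild-type arrays; all 3 knockout arrays lay below all 4 wild-type arrays, although single genes such as Hmgcs1 and Msmo1 varied widely among the knockout arrays. The efflux and LXR genes had medians of -0.40, -0.45 and -0.64 on knockout arrays, against 0.00, -0.02, 0.05 and -0.05 on wild-type arrays. The uptake and transport genes had -0.21, -0.27 and -0.24 on knockout arrays, against 0.05, -0.07, 0.07 and 0.03 on wild-type arrays.

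**Figure D4:**
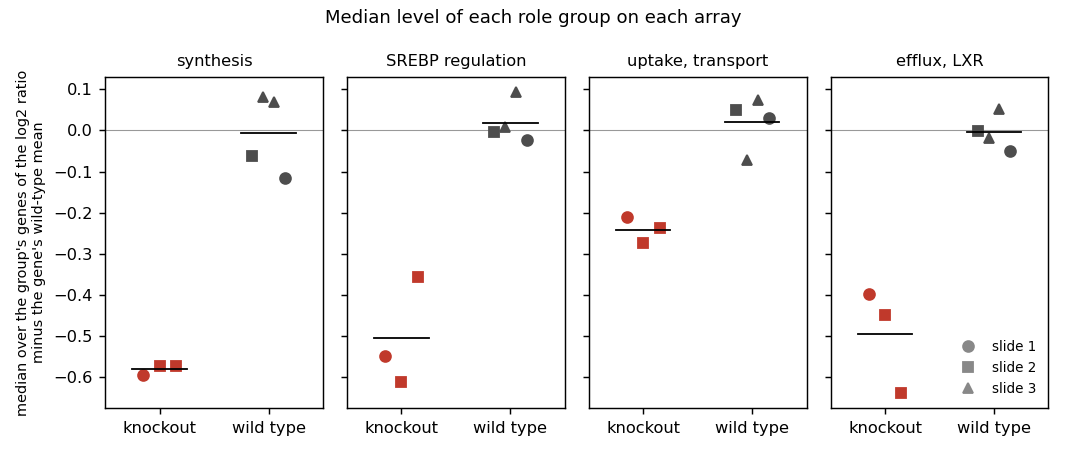
Median over each role group's genes of the log2 ratio minus the gene's wild-type mean, for the 3 knockout arrays (left, red) and the 4 wild-type arrays (right, grey); the marker shape gives the slide and the black line the group's mean. In the synthesis panel the knockout arrays sit between -0.59 and -0.57 and the wild-type arrays between -0.12 and 0.08.

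The arrays lay on 3 slides, each scanned at 1 time: knockout array 1 with wild-type array 4, knockout arrays 2 and 3 with wild-type array 1, and wild-type arrays 2 and 3 alone. Within the 2 slides that held both groups the synthesis median was -0.47 and -0.54. With slide as a fixed block 4 members were called lower, against 0.967% of all genes: Abcg1 (adjusted p = 0.0254), Fdps (0.0313), Sc5d (0.0398) and Srebf2 (0.0473). No member passed limma's treat test for a change beyond 0.5 on the log2 scale, against 0.367% of all genes called lower by it, although 6 members had an unadjusted p below 0.05 there, against 1.59% of all genes in the lower direction.

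Further genes of the pathway were taken from 6 lists. Of 91 listed genes 88 were tested, 8 were called lower and 2 higher, against 4.23% and 3.27% of all tested genes, and the median difference was -0.04, near that of all tested genes. The share called lower lay above the background and the share called higher did not. At an unadjusted p below 0.05, 19 of the 88 were lower and 7 higher, against 10.5% and 9.02% of all tested genes. These shares were not tested against the background, and the counts of single lists are small. With slide as a fixed block 5 of the 10 calls remained, those of Srebf1, Acss2, Scd2, Lpcat3 and Cyp39a1, against 0.967% of all genes called lower and 0.919% called higher in that fit. The calls of Syvn1 (adjusted p = 0.12), Vldlr (0.143), Acat1 (0.278), Nceh1 (0.227) and Stard3nl (0.304) were lost in it. Of the 16 genes of isoprenoid branches, which draw farnesyl pyrophosphate into prenylation, dolichol and ubiquinone, none was called by limma, 3 had an unadjusted p below 0.05 downward and 1 upward, and the median was 0.00; over all genes 10.5% and 9.02% had such a p, so these counts are near the background. Among 15 genes of SREBP processing and sterol-regulated degradation, 2 were called lower. Srebf1, the relative of Srebf2 that serves fatty acid synthesis and is an LXR target, averaged 0.89 ± 0.09 in knockout cells (SD, n = 3) and 1.69 ± 0.08 in wild-type cells (SD, n = 4), a difference of -0.80 (adjusted p = 0.000637). Syvn1, a ubiquitin ligase of the endoplasmic reticulum, was lower by 1.48-fold (adjusted p = 0.00614).

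Of 31 other genes of sterol uptake, transport and esterification, 2 were called lower and 1 higher, close to the 4.23% and 3.27% of all genes. Vldlr, a lipoprotein receptor, was at -1.39 (adjusted p = 0.0129) and was above background on 2 of the 3 knockout arrays. Nceh1, a cholesteryl ester hydrolase, was 1.53-fold lower (adjusted p = 0.024), and Stard3nl, a late-endosome tether, was at 0.37 (adjusted p = 0.036). Of 8 genes of oxysterol and sterol modification 6 were tested, and Cyp39a1, an oxysterol hydroxylase, was called higher at 0.61 (adjusted p = 0.0278). Of 12 accessory enzymes 2 were called lower, Acss2, which makes acetyl-CoA from acetate, by 2.25-fold (adjusted p = 0.00187), and Acat1, the mitochondrial acetyltransferase, by 1.25-fold (adjusted p = 0.0259).

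Of 9 other genes listed as LXR targets, partners or related receptors, 8 were tested. Calls were made for 2, both lower, against 4.23% of all tested genes. Scd2, a fatty acid desaturase, averaged -2.41 ± 0.16 in knockout cells (SD, n = 3) and -0.46 ± 0.20 in wild-type cells (SD, n = 4), which is 3.88-fold lower (adjusted p = 4.38e-05). Lpcat3, which remodels phospholipids, averaged 1.68 ± 0.10 in knockout cells and 2.59 ± 0.09 in wild-type cells, 1.88-fold lower (adjusted p = 0.000364). The other 6 tested genes of this list were not called.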

How the data were processed

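ILC2 RNA was measured on 7 two-colour Agilent arrays (3 knockout, 4 wild type), with the sample in Cy5 and Universal Mouse Reference RNA in Cy3, per the labels. The deposited scanner files hold spot intensity on a linear scale and a log10 ratio of red over green, background-subtracted and dye-normalized by Agilent Feature Extraction 11.0.1.1, per the file headers; the submitters' processing notes name 10.7.3.1. The deposited series table holds log2 ratios equal to that log10 ratio within 0.0005, with column medians from 0.163 to 0.254.

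From the median signals, 2597 spots with outlier flags were left out, background was corrected with normexp (offset 50), each array was normalized by loess (control spots given weight 0), and replicate spots were averaged per probe, using limma 3.58.1 and R 4.3.3. Of 39429 probes, 26581 were named through accessions in a RefSeq gene table (GRCm38.p6) and 12848 kept their accession. Genes above background in the sample channel on at least 3 arrays, with at least 2 values per group, were tested (25347), each by the probe that was brightest on average in the sample channel. Of these, 16690 had a symbol and the rest were counted by accession, so a gene may be counted more than once. Groups were compared with lmFit and eBayes on all 7 arrays without a block, with Benjamini-Hochberg adjustment and a threshold of 0.05. The offset draws dim probes' ratios towards 0. The number of arrays limits the precision. Probes above background made up 67.4% to 80.9% per array. Arrays correlated at 0.969 to 0.980 within knockout, 0.979 to 0.989 within wild type and 0.942 to 0.969 between groups. The script was also run on simulated data with independent noise, no slide effect and changes larger than those of the members. That run was a check of the code and not of the calls reported here.

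The members, the pathway and marker lists and the promoter motifs were chosen with earlier results of these data known. All 31 members were reported, array by array where called or where they regulate, transport or export sterol, together with the called genes of each pathway list and, for display, Hmgcs1, Idi1 and Ebp, added for values already seen. Some further genes of the pathway and marker lists are not reported here. Alternatives covered background correction, normalization, flags, filters, probe choice, variance model, slide, replicate number, arrays left out, a minimum change and, added after seeing the data, an Xist minus Ddx3y covariate. Figures were drawn with matplotlib 3.10.9.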

Additional observations from a re-analysis of the deposited data

Results flagged for a closer look

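In 2 of the 31 genes 1 wild-type array stood apart from the other 3 by Dixon's criterion for groups of 4, which chance meets in about 1 in 20 groups. Hmgcs1 was at 0.14 on wild-type array 3, against -0.36 to -0.33 on the other wild-type arrays. Leaving that array out did not make Hmgcs1 a called gene. Srebf2 was at 1.19 on wild-type array 1, against 1.38 to 1.42 on the other wild-type arrays, and stayed called without it. The knockout group of 3 was not examined in this way.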

How the results depend on the processing

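Calls were made under 27 alternative settings, and values alone within each of 2 slides. Not all of the 27 could differ. Scaling average intensity between arrays leaves the log ratios unchanged, so that setting repeats the reported results. The scanner log ratio and the series table hold the same values within 0.0005. Members called higher were 0 in each of the 27. Members called lower were 4 with slide as a fixed block and 0 with treat (6 at an unadjusted p below 0.05), and 12 to 18 in the other 25, with 13 in the fit with a replicate block and 17 with the Xist minus Ddx3y covariate. Leaving out 1 array gave 13 to 16 members called lower, 1263 to 1899 called genes and synthesis medians from -0.65 to -0.56. The count of called genes, 1900 as reported, was 1081 with a replicate block, 478 with slide as a fixed block, 209 with treat and 1129 with wild-type array 4 and knockout array 3 both left out, where 14 members were lower and Abcg1 was not called (adjusted p = 0.0548); knockout array 2 or wild-type array 4 left out gave 1263 and 1265. The synthesis median was -0.52 with slide as a fixed block and -0.47 and -0.54 within slides 1 and 2. Median centring in place of loess made 55.4% of called genes higher, against 43.6% as reported. The cause of these shifts was not tested. Some of the settings have fewer arrays or a stricter test by construction.

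Fdft1 lost its call in 14 of the 27, Nr1h2 in 16, Tm7sf2 in 6, Nsdhl and Msmo1 in 4 each and Mvd in 3; Hmgcs1 gained one in 5 and Idi1 in 3. After each gene's group mean was subtracted, same-numbered arrays of the groups correlated at 0.036, 0.24 and 0.021. Among wild-type arrays, the best match of knockout array 2 was array 2, while knockout arrays 1 and 3 matched arrays 3 and 4 best. The numbers were not taken as pairs. The replicate block ended the calls of Msmo1 (limma adjusted p = 0.0598), Nr1h2 (0.14) and Nsdhl (0.0557). Signs turned for 5 uncalled genes. Acat2 was -0.021 with feature flags alone, -0.031 with median centring, -0.025 with a replicate block, -0.018 with the covariate, -0.15 in the sample channel alone and -0.22 within slide 2, and ran from -0.10 to 0.078 on leaving out 1 array. Scap was 0.087 with median centring, 0.014 in the sample channel, 0.0060 with the scanner log ratio and the series table and 0.0070 within slide 2, and ran from -0.11 to 0.090 on leaving out 1 array. Npc2 was 0.012 with median centring, 0.0057 with the covariate and 0.16 within slide 2, and ran from -0.45 to 0.12 on leaving out 1 array, the lowest without knockout array 3. Mvk was 0.023 within slide 2, and Npc1 -0.16 within slide 1.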

Other observations

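The 3 knockout arrays did not rank alike across the genes. Knockout array 1 was the highest of the 3 for 14 of the 31 genes, among them Hmgcs1, Idi1, Msmo1, Sc5d, Abca1 and Abcg1, and the lowest for 11, among them Mvd, Tm7sf2, Nsdhl and Srebf2. Knockout array 3 was the lowest for 13 and the highest for 10. Of the 9 genes with a second tested probe, all 9 second probes had the sign of the first, and 1, that of Pmvk, was called over all probes.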
